A study of Mus musculus with 11 samples.

Results

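The transcripts of 8 nuclear proteins that act on DNA-RNA hybrids, degrade RNA or bind antisense oligonucleotides (ASOs) were followed here in mouse brain nuclei. They were chosen by symbol: Rnaseh1, Rnaseh2a, Rnaseh2b, Rnaseh2c, Xrn2, Nono, Sfpq and Pspc1. All 8 were found among the 25938 genes of the count table. The table holds UMI counts (counts of distinct captured RNA molecules) for 110304 single nuclei in 11 libraries. The genotype label of every sample is hTfR KI HOM, a homozygous knock-in of the human transferrin receptor, while the deposited metadata give the strain of all nuclei as C57BL/6J without naming the knock-in. By the labels, no group lacks that allele. Each mouse was dosed intravenously once a week, 4 times in all, and its tissue was collected at 72 h from the final dose. OTV:Malat1 (60 mg/kg, n = 3) is a Malat1 ASO on a transport vehicle that binds the transferrin receptor. The conjugate nonTV:Malat1 (60 mg/kg, n = 3) carries the ASO without that vehicle, and Malat1 ASO (2.5 mg/kg, n = 2) is the oligonucleotide alone. ATV:BACE1 (57 mg/kg by its label, n = 3) carries no ASO and is the control. Replicate 1 of each group was a female of 2.33 months, replicate 4 a male of 2.57 months and replicate 5 a male of 2.33 months. The deposited batches 1, 3 and 4 coincide with replicates 1, 4 and 5. The Malat1 ASO group has replicates 1 and 5 only, and a replicate 4 was not analysed here.

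In an ASO with a DNA core, pairing with the target makes a DNA-RNA hybrid, and RNase H1 cuts the RNA strand of that hybrid. The nuclear 5′-to-3′ exonuclease XRN2 then degrades the downstream fragment. RNase H2 is a separate enzyme of 3 subunits that removes ribonucleotides and hybrids from genomic DNA: RNASEH2A holds the active site, and RNASEH2B and RNASEH2C are accessory subunits. NONO, SFPQ and PSPC1 form a family of RNA-binding proteins at the core of paraspeckles, nuclear bodies built on the long non-coding RNA Neat1, and they bind oligonucleotides with a phosphorothioate backbone. Malat1, the target, is an abundant long non-coding RNA of nuclear speckles. The chemistry of the ASO used is not given in the sources used here.

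Libraries held 33235994 to 43972886 UMIs from 7546 to 13840 nuclei. Levels are given as CPM, here UMIs per 1000000 UMIs other than those of Malat1, so that loss of Malat1 itself does not move them. The target was at 80465, 81552 and 91495 CPM in ATV:BACE1 replicates 1, 4 and 5 and at 52033, 41711 and 53018 CPM in the same replicates of OTV:Malat1. In nonTV:Malat1 it was at 80946, 82355 and 91583 CPM, and in Malat1 ASO replicates 1 and 5 at 85466 and 88706 CPM. Only the OTV:Malat1 libraries lay below all others. The labels place the tissue in the posterior brain while the deposited metadata name cortex. Neurons carried Slc17a7, a gene of excitatory neurons in several brain regions, at 98.1 CPM and the 3 cerebellar markers Gabra6, Pcp2 and Cbln3 at 0.0951 to 0.561 CPM. The classes are those of the deposited annotation. All defining markers were highest in their own class for neurons, oligodendrocytes, astrocytes, vascular endothelium, vascular smooth muscle and leptomeningeal cells, and 3 of 4 were for microglia. The class named glia carried the choroid plexus and ependymal markers. For pericytes 1 of 4 markers (Vtn) was highest there and the other 3 in vascular smooth muscle. The labels do not say in words that each library is a separate mouse, so p-values measure the spread between these 11 libraries.

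No change with dosing was called for any of the 8 transcripts in all nuclei. Rnaseh1, the enzyme that acts on ASO hybrids (chr12:28649602-28659589, plus strand, GRCm38), was at 13, 10.3 and 13.2 CPM in ATV:BACE1 replicates 1, 4 and 5. In OTV:Malat1 it was at 11.4, 11.6 and 11.7 CPM, inside the range of the control. In nonTV:Malat1 it was at 12, 12.2 and 13.1 CPM, and in Malat1 ASO replicates 1 and 5 at 11.4 and 11.5 CPM. The log2 change from ATV:BACE1 to OTV:Malat1 was -0.06 (95% interval -0.28 to 0.15, edgeR on counts summed per library, adjusted p = 1.00).

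The exonuclease gene Xrn2 (chr2:147012996-147078000, plus strand) was at 77.7, 73.4 and 70.1 CPM in ATV:BACE1 and at 79.6, 75.9 and 69.8 CPM in OTV:Malat1 replicates 1, 4 and 5. The 2 groups overlapped, with a log2 change of 0.03 (95% interval -0.22 to 0.28). Nono (chrX:101429318-101448591, plus strand) was at 37.0, 32.6 and 35.5 CPM in ATV:BACE1 and at 37.4, 34.1 and 29.6 CPM in OTV:Malat1. In nonTV:Malat1 it was at 40.7, 36.5 and 35.3 CPM and in Malat1 ASO at 40.2 and 38.4 CPM. Within each replicate number OTV:Malat1 was below nonTV:Malat1 (3 of 3) and below Malat1 ASO (2 of 2), and the 95% intervals of both changes held 0 without the replicate number as a block (log2 -0.13, -0.37 to 0.11, and log2 -0.21, -0.48 to 0.05). With the block, the change from Malat1 ASO to OTV:Malat1 was -0.23 (-0.40 to -0.06, unadjusted p = 0.013, edgeR adjusted p = 0.993). That from ATV:BACE1 to Malat1 ASO was 0.17 (0.0021 to 0.34, unadjusted p = 0.0477, adjusted p = 0.553), so neither was called. Sfpq (chr4:127021324-127037013, plus strand) had a log2 change of 0.03 (95% interval -0.28 to 0.33) between ATV:BACE1 and OTV:Malat1. That of Pspc1 (chr14:56720710-56778316, minus strand) was -0.04 (-0.21 to 0.13).

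For the 3 RNase H2 subunits OTV:Malat1 and ATV:BACE1 overlapped as well. Between ATV:BACE1 and OTV:Malat1 the log2 change was -0.05 (95% interval -0.36 to 0.27) for Rnaseh2a (chr8:84956610-84969767, minus strand). It was -0.01 (-0.28 to 0.26) for Rnaseh2b (chr14:62292589-62372992, plus strand) and 0.02 (-0.43 to 0.46) for Rnaseh2c (chr19:5601873-5607019, plus strand, 188.7 kb from Malat1). Against the same control, Malat1 ASO gave the highest value of any of the 8 genes, 0.24 for Rnaseh2c, with an interval of -0.26 to 0.74. Malat1 ASO has no replicate 4 library here, and replicate 4 had the lowest Rnaseh2c of ATV:BACE1 (9.42 CPM). In replicates 1 and 5 Rnaseh2c was at 18.0 and 13.9 CPM in ATV:BACE1 and at 15.9 and 16.4 CPM in Malat1 ASO, and with the replicate block the change was 0.11 (-0.12 to 0.33). Over the 5 contrasts (3 groups against ATV:BACE1, and OTV:Malat1 against the other two), edgeR called 0 of 8 members in each, beside 0% of all 21409 genes. Malat1 was among the genes not called: for OTV:Malat1 against ATV:BACE1 its change was -0.79 (-1.09 to -0.49), with an edgeR unadjusted p of 0.000118 and an adjusted p of 1.00, so 0 called members do not show that the members were unchanged. DESeq2 called Malat1 in that contrast (adjusted p = 3.87e-09) and 0 of 8 members. At an unadjusted p under 0.05 it was again 0 of 8 in each contrast, beside 0.752%, 0.901%, 1.75%, 0.766% and 0.621% of all genes, in the order OTV:Malat1, nonTV:Malat1 and Malat1 ASO against ATV:BACE1, then OTV:Malat1 against each of the latter pair. With the replicate block edgeR called 0 members and had 0, 0, 1, 0 and 1 at an unadjusted p under 0.05, Nono both times, beside 3.77%, 5.28%, 8.87%, 3.97% and 3.62% of all genes. Libraries of the compared groups did not overlap for 0, 0, 1 (Nono), 1 (Rnaseh1) and 2 (Nono and Rnaseh2c) of the 8, beside 1.03%, 2.29%, 9.98%, 1.78% and 9.79% of 10737 genes. Between nonTV:Malat1 and Malat1 ASO it was 1 (Rnaseh1), beside 10.6%. DESeq2 also called 0 members, and 0 at an unadjusted p under 0.05, counts given here without the share over all genes. The first 3 contrasts share the ATV:BACE1 libraries. In sums over nuclei, fewer cells of a type and less RNA per cell cannot be told apart.

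**Figure D1:**
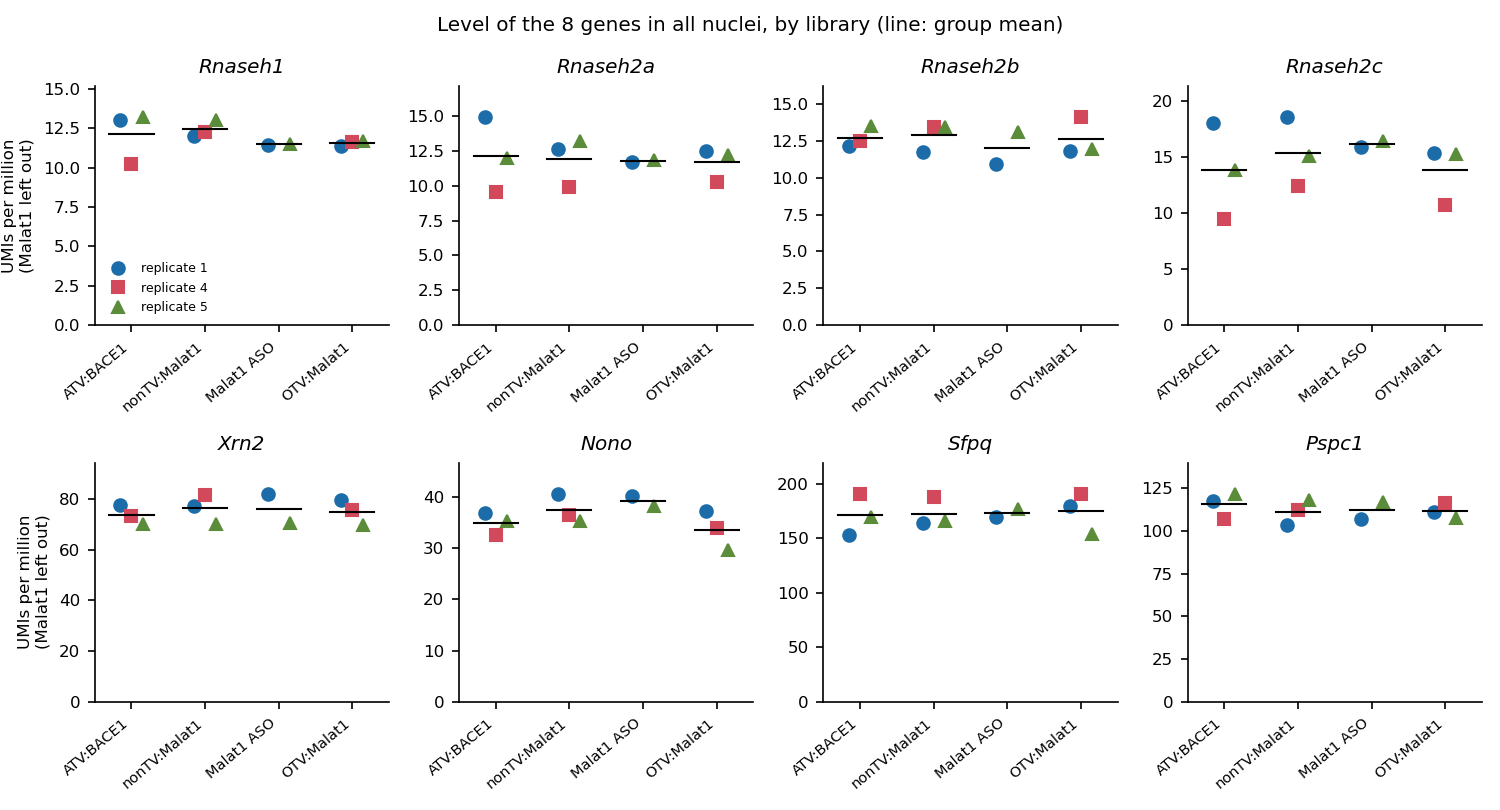
Level of each gene in all nuclei (y axis, CPM with Malat1 left out, from 0) for the 4 dosing groups (x axis). Points are libraries, shaped and coloured by replicate number, and the line is the group mean. OTV:Malat1 overlaps ATV:BACE1 for every gene, Malat1 ASO lies above both for Nono, and nonTV:Malat1 lies above OTV:Malat1 and Malat1 ASO for Rnaseh1, while Rnaseh2a and Rnaseh2c are lowest and Sfpq highest in the 3 libraries of replicate 4.

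**Figure D2:**
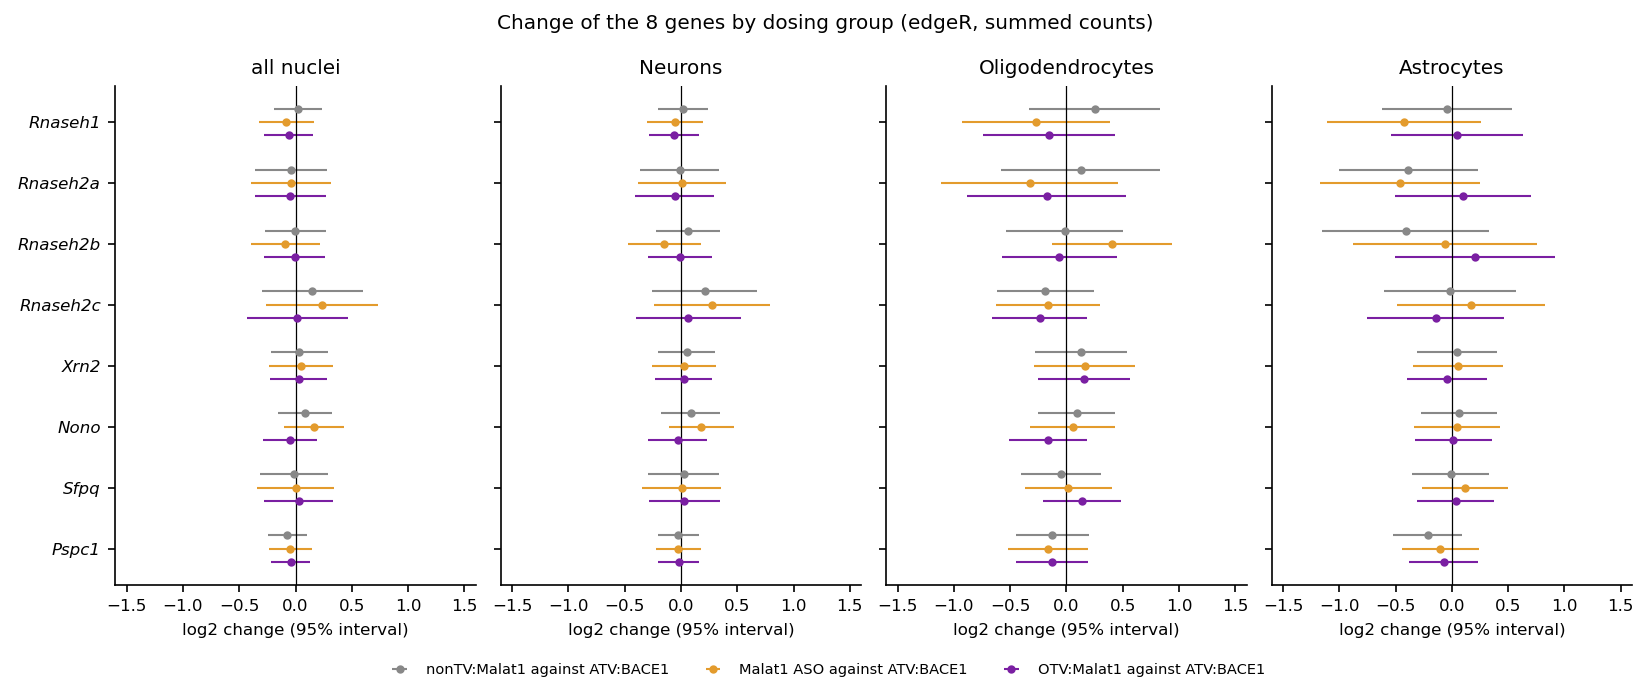
Log2 change of each gene from ATV:BACE1 (x axis) in nonTV:Malat1, Malat1 ASO and OTV:Malat1, in all nuclei and in the 3 largest classes. Points are edgeR estimates and bars 95% intervals, and all of the plotted intervals hold 0.

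For 4 members the libraries of 1 replicate number stood apart from all others, whatever the dosing group. Rnaseh2c was at 9.42, 12.4 and 10.7 CPM in replicate 4 of ATV:BACE1, nonTV:Malat1 and OTV:Malat1. The other 8 libraries ran from 13.9 to 18.5 CPM, with no overlap. Rnaseh2a was at 9.55 to 10.3 CPM in the same 3 libraries and at 11.7 to 14.9 CPM in the other 8. For these 2 subunits of 1 enzyme the replicate means differed by 1.56-fold (Rnaseh2c) and 1.31-fold (Rnaseh2a), against 1.17-fold and 1.04-fold between dosing groups. Rnaseh2b, the other accessory subunit, overlapped in all nuclei. Sfpq went the opposite way, at 188.2 to 190.9 CPM in replicate 4 and 153.0 to 179.6 CPM elsewhere. Xrn2 was lowest in replicate 5, at 69.8 to 70.4 CPM against 73.4 to 82.1 CPM. Such separation was common in these data: 21.4% of 10737 genes with at least 10 CPM were lower in every replicate 4 library, 3.86% were higher there, and 4.92% were lower in every replicate 5 library. In neurons alone Rnaseh2a, Rnaseh2c, Sfpq and Xrn2 separated in the same way, and Rnaseh2b was lower there in every replicate 1 library (11 ± 0.927 CPM, SD, n = 4, against a mean of 12.9 CPM in the other 7). In neurons 21.8% of genes were lower and 3.94% higher in every replicate 4 library, 3.91% were lower in every replicate 5 library and 9.37% in every replicate 1 library. In all nuclei 9.44% of genes were lower in every replicate 1 library. Replicate 4 shares its sex with replicate 5, and its batch and age cannot be told apart. Replicate 5 shares its sex with replicate 4 and its age with replicate 1, while its batch and its combination of sex and age are its own. Replicate 1 shares its age with replicate 5, and its sex and batch cannot be told apart. The cause of these separations was not tested.

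For Rnaseh2a and Rnaseh2c the 250 bases upstream of each RefSeq start are shown (GRCm38.p6). Both were lowest in the replicate 4 libraries, a separation that was common among all genes, as given above. A link between these sequences and the levels was not tested. For Rnaseh2c that start is the one of the gene interval given above, and for Rnaseh2a it lies 3691 bases inside that interval, which holds longer transcripts. Capitals mark a GC box (GGGCGG) or a CCAAT box (CCAAT), searched on both strands, the reverse of CCAAT reading ATTGG. The window of Rnaseh2a is chr8:84966077-84966326 on the minus strand and that of Rnaseh2c is chr19:5601623-5601872 on the plus strand.
Rnaseh2a: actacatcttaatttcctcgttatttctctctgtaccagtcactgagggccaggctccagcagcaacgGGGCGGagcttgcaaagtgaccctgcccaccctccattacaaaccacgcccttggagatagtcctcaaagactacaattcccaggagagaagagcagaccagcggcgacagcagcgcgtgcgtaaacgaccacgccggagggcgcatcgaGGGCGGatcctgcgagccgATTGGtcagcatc
Rnaseh2c: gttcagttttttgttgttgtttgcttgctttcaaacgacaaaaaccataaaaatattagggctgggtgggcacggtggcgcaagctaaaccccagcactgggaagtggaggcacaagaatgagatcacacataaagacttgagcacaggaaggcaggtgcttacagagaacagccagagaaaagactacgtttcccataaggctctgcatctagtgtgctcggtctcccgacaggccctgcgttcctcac
Rnaseh2a held 2 GC boxes and 1 CCAAT box and Rnaseh2c held 0 of either. Among 32851 mouse promoter windows of this length, 32.7% held a GC box and 33.8% a CCAAT box. The ETS core CCGGAA, present in 12% of windows, was in neither. The table matched 6 of the 8 genes and gave no entry for Rnaseh1 or Rnaseh2b.

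Across cell classes the largest contrast was that of Rnaseh2c in blood vessel cells. Class comparisons are descriptions without a test, since classes were drawn from the same expression values. In the class annotated as pericytes, Rnaseh2c ranged from 76.0 to 181.1 CPM over the 11 libraries, with a median of 105.1 (mean 113.9 ± 34.2, SD, n = 11, 242 UMIs in 930 nuclei). In vascular endothelium it ranged from 53.2 to 168.1 CPM with a median of 96.7 (109.3 ± 33.9, SD, n = 11, 142 UMIs in 1106 nuclei). In neurons it ranged from 7.91 to 15.6 CPM (12.7 ± 2.51, SD, n = 11). No library of either vascular class fell into the neuronal range, and the means were 9.00-fold and 8.63-fold those of neurons. Of the 10737 genes, 2.91% in pericytes and 3.07% in endothelium had a log2 ratio to neurons at least as high. The genes compared had at least 10 CPM over all nuclei, of which 69.1% were named neurons. Genes confined to vessels can fail that filter, so these shares may be too low.

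The 2 vascular classes overlapped in Rnaseh2c, and the pericyte class held endothelial RNA as well as its own. The class annotated as pericytes carried the endothelial genes Cldn5 and Flt1 at 2304 and 4554 CPM, near their 2537 and 5820 CPM in endothelium, beside the pericyte gene Vtn at 2653 CPM. Endothelium carried Vtn at 200.4 CPM. Vascular smooth muscle, with Cldn5 at 229.6 CPM, had Rnaseh2c at 40.9 ± 36.2 CPM (SD, n = 8, 11 UMIs in all). What endothelial RNA contributes to the level in the pericyte class was not tested. With called doublets left out, the mean log2 ratio to neurons was 3.09 in pericytes and 2.99 in endothelium, beside 3.04 and 2.97 with them. Rnaseh2c overlaps Kat5 on the opposite strand over 4006 bases, 426 of them exonic in both, and whether counting used strand is not given in the sources used here. Kat5, an acetyltransferase gene, was at 17.5 ± 11.6 CPM in pericytes and 7.80 ± 0.483 CPM in neurons (SD, n = 11), a 2.24-fold ratio.

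For the catalytic subunit the vascular classes overlapped neurons. Rnaseh2a was at 22 ± 17.3 CPM in endothelium (30 UMIs, 2 of 11 libraries at 0) and at 18.0 ± 8.91 CPM in pericytes, against 11.8 ± 1.68 CPM in neurons (SD, n = 11). Its libraries overlapped between each class and the next in order. In the authors' cluster 6, which holds leptomeningeal cells and endothelium among others, Rnaseh2a was at 17.8 ± 4.76 CPM (130 UMIs), the highest mean of the 10 clusters. That was above cluster 0, a neuronal cluster at 11.8 ± 2.07 CPM, in 10 of 11 libraries. Rnaseh2c was also highest in cluster 6, at 67.4 ± 16 CPM (SD, n = 11). Rnaseh2a shares 181 bases with Prdx2 on the opposite strand, and Prdx2 was 4.20-fold higher in endothelium than in neurons. It also overlaps Gm49661, a protein-coding gene on the same strand. Rnaseh2b shares 459 bases with Dleu7 on the opposite strand, which was at 3.56 CPM in oligodendrocytes and 2.15 CPM in neurons. Rnaseh2b had its highest mean in oligodendrocytes, at 17 to 32.4 CPM (22.9 ± 4.53, SD, n = 11), against 9.69 to 13.5 CPM in neurons, with no overlap, 1.87-fold by the means. Microglia came next and overlapped, at 20.9 ± 18.5 CPM (22 UMIs). Neurons were not alike in Rnaseh2b: the neuronal clusters 1 and 9 were at 14.0 to 21.6 and 10.9 to 27.2 CPM. Both overlapped cluster 3, mostly oligodendrocytes, at 14.6 to 29.7 CPM. In endothelium Rnaseh2b was at 13.9 ± 16.6 CPM with 4 of 11 libraries at 0, so 18 UMIs in all set no level there. The highest means of the 3 subunits over these classes fell in endothelium (Rnaseh2a, overlapping others), oligodendrocytes (Rnaseh2b, overlapping microglia) and pericytes (Rnaseh2c, overlapping endothelium). Perivascular macrophages reached 20 nuclei in 1 library only and are left out.

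Rnaseh1 was also higher in oligodendrocytes, at 13.6 to 29.7 CPM (18.7 ± 4.82, SD, n = 11), than in neurons at 10.1 to 12.9 CPM (11.6 ± 0.849). Every oligodendrocyte library lay above every neuronal one, and the mean ratio was 1.62-fold. Microglia had a higher mean, 23.0 ± 14.0 CPM, from only 28 UMIs and overlapping oligodendrocytes. Astrocytes were at 12.2 ± 2.57 CPM, leptomeningeal cells at 10.3 ± 5.97 CPM and glia at 10.3 ± 3.98 CPM, none apart from neurons.

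Nono had its lowest mean in neurons and was higher in 7 classes in every library. In the eighth, vascular smooth muscle, it was at 39.4 ± 33.2 CPM (SD, n = 8, 11 UMIs), below neurons in 4 of 8 libraries and at 0 in 2. It was at 28.0 to 37.2 CPM in neurons, 40.3 to 50.9 CPM in astrocytes and 45.7 to 62.1 CPM in oligodendrocytes, which did not overlap neurons. Glia reached 60.9 ± 7.32 CPM, leptomeningeal cells 72.4 ± 20.9, pericytes 78.1 ± 23.7, endothelium 81.7 ± 14.5 and microglia 87.6 ± 37.0 CPM (SD, n = 11). These last 4 overlapped, so their order is not settled. Xrn2 showed a shallower slope, from 72.5 ± 3.79 CPM in neurons through 87.4 ± 8.15 in astrocytes and 102.4 ± 13.5 in oligodendrocytes to 131.8 ± 33.1 in endothelium and 132.5 ± 29.1 in microglia (SD, n = 11). The microglial libraries, 92.3 to 175.5 CPM, lay above all neuronal ones, 68.4 to 78.2 CPM.

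The other paraspeckle partners were nearly flat. Sfpq spanned 165.5 ± 14.6 CPM in astrocytes to 201.2 ± 19.5 CPM in oligodendrocytes (SD, n = 11), and to 217.1 ± 78.1 CPM in vascular smooth muscle (n = 8, 60 UMIs), a 1.31-fold range. Gm12940, an overlapping gene on the same strand, was at 40.7 ± 12 CPM in neurons. Pspc1 spanned 96.2 ± 37.5 CPM in endothelium to 139.0 ± 27.4 CPM in leptomeningeal cells, a 1.45-fold range, and neighbouring classes overlapped.

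Set against neurons library by library, oligodendrocytes held 6 of 8 members higher in all 11 (Rnaseh1, Rnaseh2b, Rnaseh2c, Xrn2, Nono and Sfpq), where 36.7% of all genes were. Rnaseh2c, Xrn2 and Nono were higher in every library of astrocytes (3 of 8, beside 38.4% of genes), pericytes (3 of 8, 23.3%) and endothelium (3 of 8, 19.4%). Xrn2 and Nono were so in microglia (2 of 8, 16.9%). Nono alone was so in glia (1 of 8, 25.2%) and in leptomeningeal cells (1 of 8, 24.3%), and 0 of 8 were in the 8 libraries of vascular smooth muscle (9.37%). No member was lower than neurons in every library of any of the 8 classes, where 13.2% (vascular smooth muscle) to 31.6% (oligodendrocytes) of genes were, with 27.9% in astrocytes, 25.6% in pericytes, 23.2% in endothelium, 18.6% in glia, 17.9% in microglia and 17.1% in leptomeningeal cells. In astrocytes, glia, leptomeningeal cells and vascular smooth muscle the share of members higher than neurons in every library was at or under that of all genes.

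**Figure D3:**
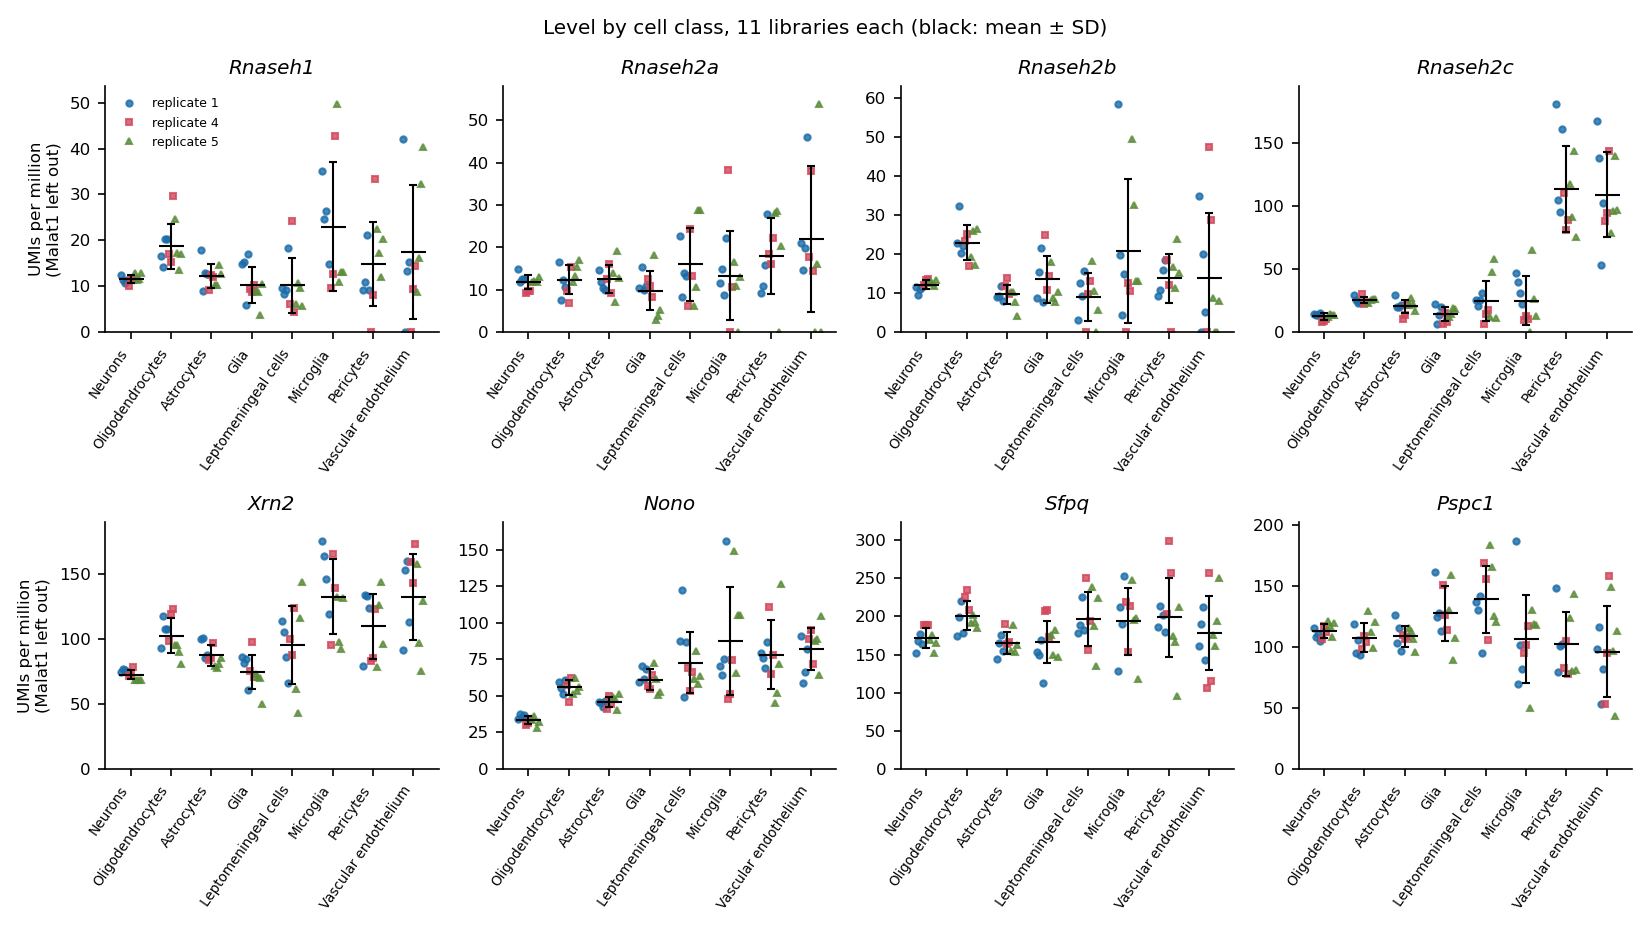
Level of each gene (y axis, CPM with Malat1 left out) in 8 cell classes (x axis). Points are the 11 libraries by replicate number, and black marks are mean ± SD. By the mean over libraries Rnaseh2c is highest in pericytes and vascular endothelium, with points that overlap those of some other classes, Nono is lowest in neurons, and Sfpq and Pspc1 are nearly level.

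No change of a member was called within classes. In each of the 5 contrasts 0 members were called by edgeR, from 46 tests in the 3 contrasts against ATV:BACE1 and 47 in the other 2, beside 0.00513%, 0%, 0%, 0.00252% and 0.00378% of all gene tests in the order given above. At an unadjusted p under 0.05 there were 0, 1, 1, 1 and 1, beside 2.27%, 2.05%, 2.61%, 1.74% and 1.95% of all gene tests. DESeq2 called 0 and had 0, 0, 0, 0 and 1 at that level, again without the share over all genes. With the replicate block edgeR called 0 and had 0, 3, 3, 2 and 3, beside 4.49%, 4.44%, 7.02%, 3.78% and 4.31%. In the authors' 10 clusters 0 of 74 member tests were called in each contrast, beside 0.00225%, 0%, 0%, 0.00301% and 0.00225%, with 0, 1, 1, 1 and 0 at an unadjusted p under 0.05, beside 1.71%, 1.51%, 2.4%, 1.48% and 1.65%. The class members at that unadjusted level were Pspc1 in leptomeningeal cells (nonTV:Malat1 against ATV:BACE1, log2 -0.60), Xrn2 in pericytes (Malat1 ASO against ATV:BACE1, 0.72), Xrn2 in glia (OTV:Malat1 against nonTV:Malat1, 0.50) and Nono in leptomeningeal cells (OTV:Malat1 against Malat1 ASO, -0.97). All 8 members passed the filter on low counts in neurons, oligodendrocytes and astrocytes. In pericytes and endothelium 5 did (Rnaseh2c, Xrn2, Nono, Sfpq and Pspc1), in glia, microglia and leptomeningeal cells 4 did (the same without Rnaseh2c), and in vascular smooth muscle Sfpq alone did.

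In oligodendrocytes, the class with the lowest ratio of Malat1 to control, Rnaseh1 was at 16.6, 17 and 24.6 CPM in ATV:BACE1 and at 20.3, 15.2 and 13.6 CPM in OTV:Malat1 replicates 1, 4 and 5, overlapping. The log2 change was -0.16 (95% interval -0.75 to 0.43) for Rnaseh1, 0.16 (-0.25 to 0.56) for Xrn2, -0.16 (-0.51 to 0.18) for Nono and 0.14 (-0.21 to 0.49) for Sfpq. For the RNase H2 genes it was -0.17 (-0.88 to 0.53) for Rnaseh2a, -0.06 (-0.58 to 0.45) for Rnaseh2b and -0.24 (-0.66 to 0.19) for Rnaseh2c. In neurons the changes of Rnaseh1, Xrn2, Nono and Sfpq lay from -0.06 to 0.03. Over the classes the lowest was -0.76 for Pspc1 in endothelium (-1.62 to 0.11) and the highest 0.53 for Xrn2 in pericytes (-0.09 to 1.14), so in rare classes changes beyond 2-fold fit inside some intervals. Rnaseh2c in pericytes was at 181.1, 110.8 and 117.8 CPM in ATV:BACE1 and at 95.6, 80.9 and 143.7 CPM in OTV:Malat1, overlapping, with a log2 change of -0.50 (-1.16 to 0.15). Whether a change differed between classes was tested with limma, and only Xrn2 and Sfpq passed its filter in all 8 classes. Of 8 tests each, 0 were called for either gene, beside 0.00912% of all gene tests. The lowest unadjusted p-values were 0.047 for Sfpq in leptomeningeal cells (-0.42, adjusted p = 0.999) and 0.053 for Sfpq in endothelium (0.57, adjusted p = 0.814).

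The level of each member in control nuclei was set beside the Malat1 loss of the 8 classes. By rank the correlation largest in size was that of Rnaseh1 (Spearman's rho -0.79), a value without a background over all genes. Loss was taken as the log2 ratio of Malat1 in OTV:Malat1 to ATV:BACE1 within each replicate number. It was -2.45 ± 0.274 in oligodendrocytes, -1.85 ± 0.278 in endothelium, -1.57 ± 0.270 in astrocytes and -0.93 ± 0.191 in microglia (SD, n = 3). It was -0.85 ± 0.283 in pericytes, -0.71 ± 0.167 in neurons, -0.51 ± 0.124 in glia and -0.34 ± 0.117 in leptomeningeal cells. Pericytes and endothelium overlapped in Rnaseh2c, at 136.6 ± 38.7 and 111.9 ± 48.9 CPM in ATV:BACE1 (72 and 38 UMIs). They kept 55.6% and 27.7% of control Malat1, and the pericyte class held endothelial RNA. Microglia and endothelium overlapped in Xrn2, at 134.4 ± 40.1 and 136.1 ± 39 CPM (33 and 40 UMIs), and kept 52.6% and 27.7%. Such pairs are examples from few UMIs, and whether the level of a member bears on the loss was not tested.

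Over the 8 classes the correlation of level with loss was strongest for Pspc1 and Rnaseh1, in opposite directions. A negative value means a higher level where more Malat1 was lost. Pearson's r was -0.50 for Rnaseh1 (rho -0.79), with control levels of 19.4 ± 4.53 CPM in oligodendrocytes, 12.5 ± 4.73 CPM in astrocytes and 7.37 ± 2.06 CPM in leptomeningeal cells. Microglia broke that order, at 31.4 ± 20.3 CPM from 7 UMIs, the highest of the 8 classes at a middling loss. For Rnaseh1 r was -0.80 with nuclei of at least 1000 UMIs alone and -0.17 without replicate 1. Over the authors' 10 clusters it was -0.43 (rho -0.64). Pearson's r was 0.64 for Pspc1 (rho 0.67), whose highest control levels, 163.0 ± 24.0 CPM in leptomeningeal cells and 147.2 ± 15.8 CPM in glia, stood in the classes with the smallest loss. Xrn2 gave -0.39 (rho -0.60), Rnaseh2c -0.37 (rho -0.64) and Rnaseh2b -0.28 (rho -0.38). Nono gave 0.0053 (rho -0.12), Rnaseh2a 0.13 (rho -0.26) and Sfpq 0.36 (rho 0.36), each with the sign of r reversed under another setting, as given below. Computed within single replicate numbers, r ran from -0.44 to 0.059 for Rnaseh1 and from 0.030 to 0.63 for Pspc1. It ran from -0.54 to 0.11 for Xrn2, -0.50 to 0.23 for Rnaseh2b, -0.27 to 0.33 for Rnaseh2a and -0.13 to 0.41 for Sfpq. For Rnaseh2c it stayed below 0, from -0.56 to -0.18, and for Nono from -0.12 to -0.037. Over all 10737 genes, r had a median of 0.056 and its middle 90% ran from -0.54 to 0.59. Pspc1 lay just outside that range, and Rnaseh1 inside it with all nuclei. These are descriptions of 8 classes of the same mice, with the ATV:BACE1 libraries entering both measures and 4 of the classes resting on under 10 UMIs of Rnaseh1.

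**Figure D4:**
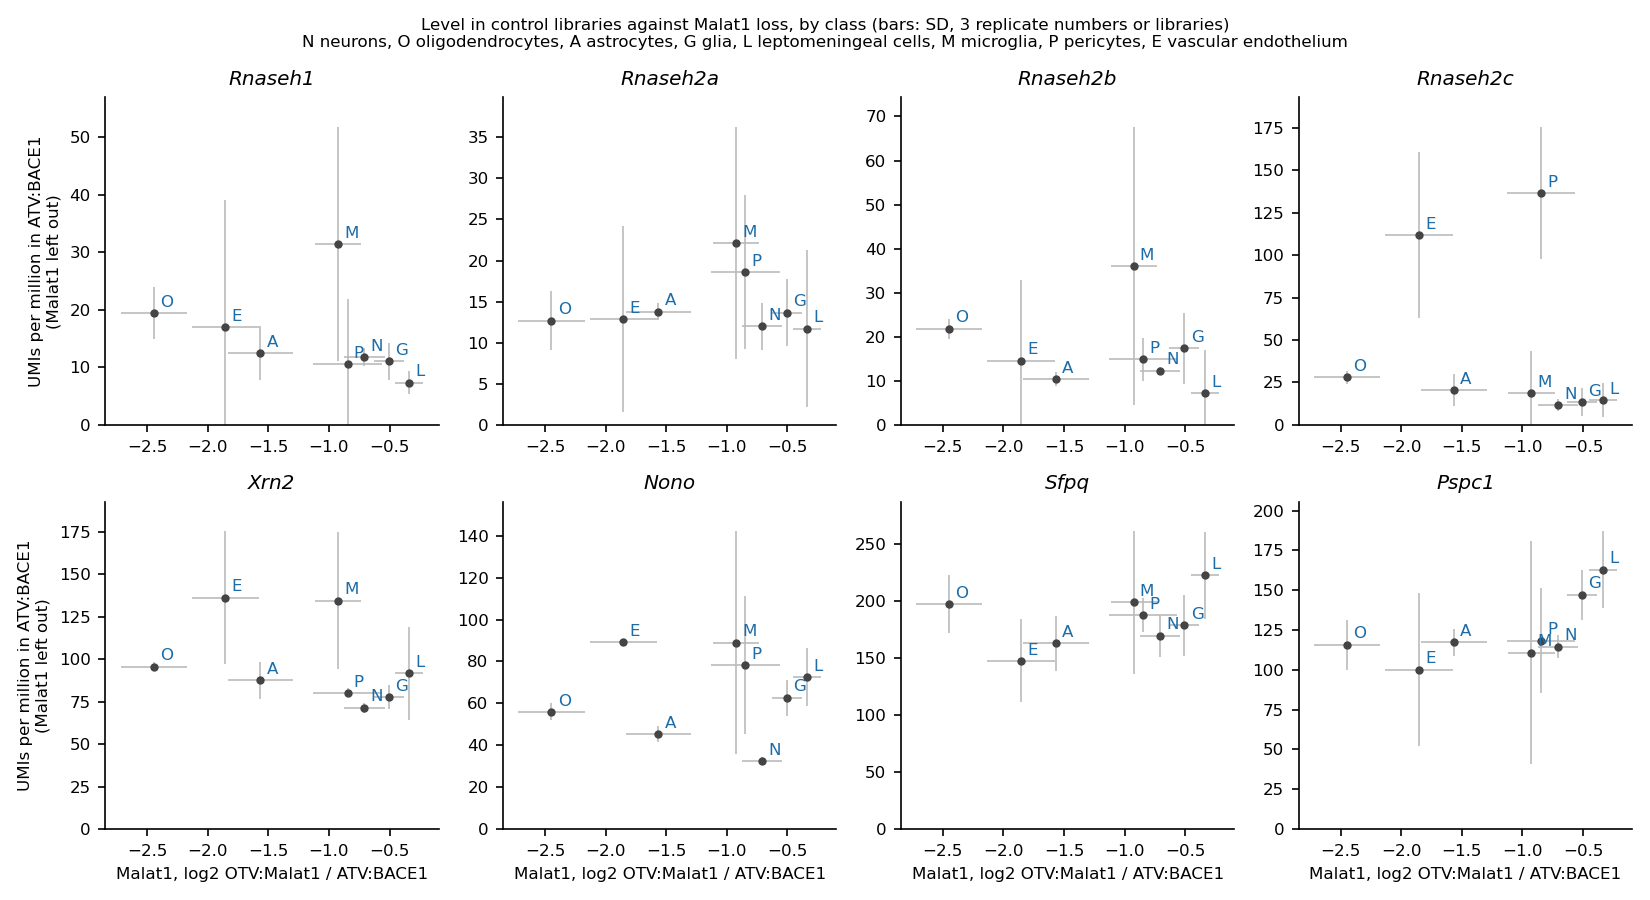
Level of each gene in the 3 ATV:BACE1 libraries (y axis, CPM with Malat1 left out) against the log2 ratio of Malat1 between OTV:Malat1 and ATV:BACE1 (x axis) for 8 classes named by letters. Bars are SD over 3 libraries or 3 replicate numbers. Oligodendrocytes lie farthest left, at -2.45, without the highest level of any of the 8 genes.

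Nuclei of 1 class also differ in how much Malat1 they keep. Nuclei with at least 1000 UMIs were thinned to 1000 and split into tertiles by Malat1 within a library and class, and the members were compared between the lowest and the highest tertile. In neurons of ATV:BACE1 the tertiles had mean medians of 46.3 and 101.0 Malat1 UMIs per 1000, and in OTV:Malat1 of 24.7 and 72.7. Rnaseh2b was higher in the lowest tertile, in all 6 libraries. It was at 14.3, 16.7 and 18.0 CPM in the lowest and at 9.95, 9.24 and 9.36 CPM in the highest tertile of ATV:BACE1 replicates 1, 4 and 5. In OTV:Malat1 it was at 15.6, 16.8 and 13.5 CPM and at 6.49, 11.2 and 8.56 CPM. The low and high values did not overlap in either group. The mean log2 ratio was 0.72 ± 0.208 in ATV:BACE1 and 0.77 ± 0.332 in OTV:Malat1 (SD, n = 3), a difference of 0.05 (exact two-sided permutation p = 0.8, adjusted p = 1 over the 32 class and gene pairs). Of 10737 genes, 2.88% had a mean ratio over the 6 libraries as high.

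The tertiles differed in which neurons they held. The authors' cluster 1, a neuronal cluster, made up 47.2% to 63.2% of the lowest and 6.23% to 10.9% of the highest tertile. Its Rnaseh2b was at 18.9 ± 2.47 CPM, against 10.6 ± 1.04 in cluster 0 and 7.65 ± 1.21 in cluster 2 (SD, n = 11). Its Malat1 in ATV:BACE1 was at 56650 ± 4563 CPM, against 88678 ± 7110 and 96819 ± 7133 (SD, n = 3). With tertiles taken inside a cluster, the mean log2 ratio of Rnaseh2b over the 6 libraries was 0.068 ± 0.333 in cluster 0 and 0.26 ± 0.235 in cluster 1. It was 0.78 ± 0.621 in cluster 2, from 155 and 60 UMIs. In the smaller clusters 5 and 9 it was 0.76 ± 1.29 and 0.53 ± 1.32, from 21 to 45 UMIs a tertile. Libraries lay on both sides of 0 in each of these 5 clusters, with 3, 5, 5, 4 and 5 of 6 above it in clusters 0, 1, 2, 5 and 9.

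The other members differed little between neurons low and high in Malat1. Rnaseh2a and Rnaseh2c were also higher in the lowest tertile in all 6 libraries, with mean log2 ratios of 0.16 ± 0.0657 and 0.13 ± 0.126 (SD, n = 6). With Rnaseh2b that made 3 of 8 members, beside 24.5% of all genes, and 0 of 8 were lower in all 6, beside 18.5%. The ratio of Rnaseh1 was -0.06 ± 0.138, of Xrn2 -0.02 ± 0.0932, of Sfpq -0.05 ± 0.0786 and of Pspc1 0.08 ± 0.105 (SD, n = 6). That of Nono was 0.19 ± 0.0454 in ATV:BACE1 and 0.03 ± 0.107 in OTV:Malat1 without overlap (exact permutation p = 0.1, the smallest 3 against 3 allows, adjusted p = 1). Averaged over astrocytes, glia, neurons and oligodendrocytes, the difference between OTV:Malat1 and ATV:BACE1 ran from -0.26 (Rnaseh2c) to 0.70 (Rnaseh2b), with exact p-values of 0.3 to 1 (adjusted p = 1 for all 8). With 3 libraries a group this test could call nothing at 0.05. For Rnaseh2b the difference was -0.82, 3.67, 0.05 and -0.11 in those classes in turn, and its average changed sign with nuclei thinned to 500 UMIs, as given below.

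**Figure D5:**
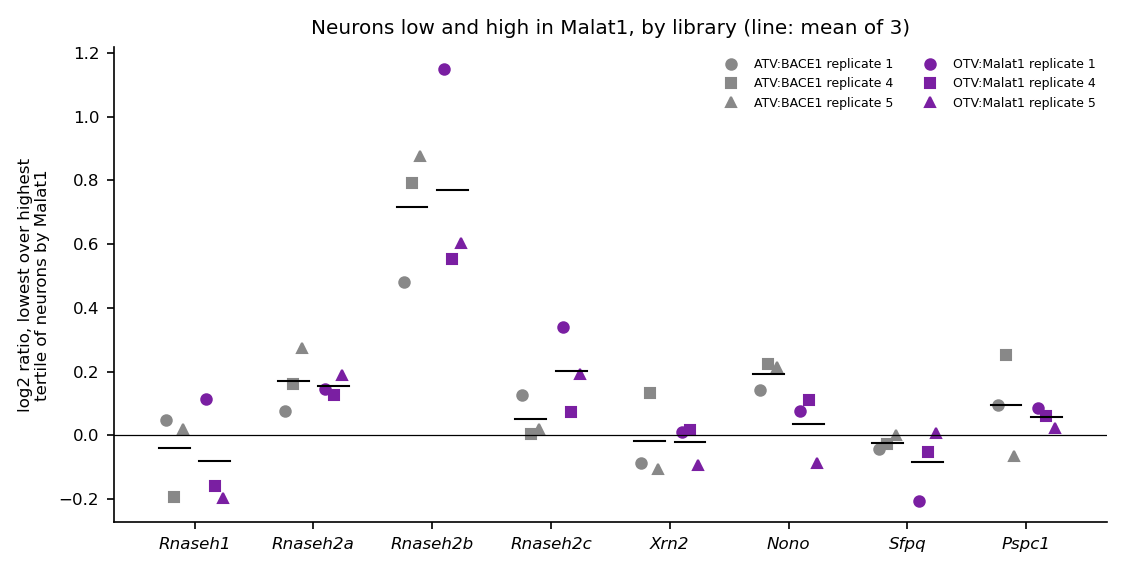
Log2 ratio of each gene between the lowest and the highest tertile of neurons by thinned Malat1 (y axis), in 3 ATV:BACE1 and 3 OTV:Malat1 libraries, with the mean of 3 as a line. Rnaseh2b lies above 0.48 in all 6 libraries, and the other 7 genes lie between -0.21 and 0.34.

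Over the authors' 10 clusters, the genes whose levels (log2 of CPM + 1) ran most like each member were named by Pearson's r among 10736 genes. For Rnaseh2c they were Uhmk1 (0.99), Phb2 (0.99) and Myl12b (0.99), and for Nono they were Ube2d3 (0.99), Gpbp1 (0.99) and Ythdc1 (0.98), the last a nuclear reader of methylated adenosine. Xrn2 was nearest to Dram2 (0.98), Srprb (0.97) and Tmem208 (0.97), and Rnaseh2a to Aasdhppt (0.96), Mrps15 (0.93) and Vapb (0.93). Rnaseh2b was nearest to Ptbp2 (0.95), a neuronal splicing regulator, Tent4b (0.94) and Fam13b (0.93). For Rnaseh1 they were Coro1a (0.93), Gopc (0.92) and Rnmt (0.92), for Pspc1 Vps37a (0.91), Wdr6 (0.91) and Cnot7 (0.90), and for Sfpq Jade2 (0.90), Srbd1 (0.90) and Med4 (0.89). Among the members themselves the pairs most alike were Rnaseh1 with Xrn2 (0.85), Rnaseh2a with Rnaseh2c (0.84) and Rnaseh1 with Sfpq (0.83). Pspc1 and Nono, partners in 1 protein family, had r of 0.17, and Pspc1 and Sfpq -0.25. Clusters of the same libraries share depth, and 10 points leave room for high values among so many genes.

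Genes around the members showed no called change either. Of 22 other paraspeckle genes 21 were measured, and of 14 other genes for proteins reported to bind phosphorothioate oligonucleotides all 14. Of 23 symbols listed for RNA decay and DNA-RNA hybrids 21 were matched, and Skiv2l2 and Trex1 were not found under those symbols. In all nuclei 0 rose and 0 fell in each list and each of the 5 contrasts by edgeR, and 0 had an unadjusted p under 0.05. With the replicate block 0 were called and up to 4 of a list had an unadjusted p under 0.05 (4 of 21 decay genes, Malat1 ASO against ATV:BACE1, beside 8.87% of all genes). Median log2 changes from ATV:BACE1 to OTV:Malat1 were -0.02, 0.04 and -0.01, beside 0.01 for all genes. The smallest p-values belonged to Rbm14 (-0.09) and Hnrnph1 (0.06) among paraspeckle genes, to Ssb and Ybx1 (0.10 each) among oligonucleotide binders, and to Cdkn2aip, a gene for an XRN2-binding protein (-0.38, 95% interval -0.83 to 0.08), and Exosc9 of the RNA exosome (-0.15) among decay genes. In classes and clusters 0 of their tests were called by edgeR as well. For OTV:Malat1 against ATV:BACE1, 5 of 156 paraspeckle, 3 of 102 oligonucleotide-binder and 2 of 111 decay tests in classes had an unadjusted p under 0.05, beside 2.27% of all gene tests. In clusters it was 3 of 209, 1 of 138 and 1 of 187, beside 1.71%.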

How the data were processed

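Single-nucleus UMI counts were deposited as whole numbers per gene and nucleus without normalization, per the file headers. The submitters' processing notes name Cell Ranger 5.0.0, Seurat 4 and mm10. Deposited metadata gave class, cluster, doublet call (10.4% of nuclei, kept) and batch. They also hold a doublet score, a class prediction score as a fraction and a percent of mitochondrial UMIs, deposited by the authors and not used in a test. Column sums equalled the deposited totals in 110304 nuclei, and pairs of libraries shared 12 to 57 barcodes. Gene positions are from GENCODE vM21.

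Counts were summed per library for all nuclei, classes and clusters (at least 20 nuclei) and tested with edgeR 4.0.16 (quasi-likelihood, TMM, filterByExpr, Benjamini-Hochberg over all genes of a fit, threshold 0.05). Class differences used limma 3.58.1 (log2 CPM, prior count 2). Alternatives included DESeq2 1.42.0. The edgeR and limma tests were also run on simulated counts drawn without a replicate effect. The libraries here differ in that, so the simulation does not vouch for the tests on them. Ratios of tertiles used a pseudocount of 1 CPM.

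With each gene centred on its group mean, same-numbered libraries deviated together (r 0.565 to 0.873 over 15 pairs, against -0.829 to 0.420 over 30 pairs of different numbers). Centring on so few libraries per group pushes different numbers in opposite directions, so part of this contrast is built in. The deposited batches coincide with the numbers.

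The members, lists and tests were chosen with earlier results of these data known. All 8 members, the 2 list genes with the smallest p where none was called, and the 3 genes most like each member are named by rule. Marker and overlapping genes are named as context.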

Additional observations from a re-analysis of the deposited data

How the results depend on the processing

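No member was called under any of 19 alternative settings: of 6248 member tests over all settings, 0 passed, and the lowest adjusted p was 0.416 (Nono in cluster 0, Malat1 ASO against ATV:BACE1, replicate block). The share of all genes called is not given for each setting, so this count does not set the members apart from other genes. The replicate block changed no call, with 0 members called in each contrast. Of 720 log2 changes in all nuclei, 88 changed sign, the largest of them 0.154 in size.

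The correlation of level with Malat1 loss depended on the processing for 5 genes. With nuclei of at least 1000 UMIs r was -0.80 for Rnaseh1 and -0.16 for Nono. Without called doublets it was 0.16 for Nono. With levels from all 11 libraries it was -0.18 for Rnaseh2a and -0.14 for Sfpq, and over clusters -0.24 for Nono and -0.17 for Sfpq. Leaving out a replicate number gave -0.48 to -0.17 for Rnaseh1 (weakest without replicate 1), -0.49 to 0.14 for Rnaseh2b (positive without replicate 1) and -0.077 to 0.023 for Nono.

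For tertiles averaged over classes, the difference between OTV:Malat1 and ATV:BACE1, which was uncalled throughout, changed sign in 7 genes. With nuclei split at the median it was 0.20 for Rnaseh1, 0.029 for Sfpq and 0.091 for Pspc1. With nuclei thinned to 500 UMIs it was -0.38 for Rnaseh2a, -0.85 for Rnaseh2b and -0.14 for Nono. Leaving out a replicate number gave -0.74 to 0.30 for Rnaseh1, -0.55 to 0.22 for Rnaseh2c, -0.20 to 0.32 for Nono, -0.085 to 0.044 for Sfpq and -0.24 to 0.17 for Pspc1. The causes were not tested.

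Alternatives chosen after seeing the data left the log2 ratio of Rnaseh2c to neurons between 2.80 and 3.16 in both vascular classes. They gave 0.56 with a split at the median and 0.73 with 500 UMIs for Rnaseh2b in neurons low against high in Malat1, beside 0.74. With tertiles inside a cluster this ratio was 0.068 in cluster 0 and 0.26 in cluster 1, the values farthest from 0.74. It was 0.78, 0.76 and 0.53 in clusters 2, 5 and 9. Few UMIs limit Rnaseh1 and the RNase H2 genes in rare classes. Leaving out replicate 1 or 5 of Malat1 ASO left that group with 1 library, assumed to vary like the other groups. With nuclei of at least 1000 UMIs no member passed the filter of the class-difference test.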
